A study of Mus musculus with 2 samples.

Results

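The genes described here encode splicing factors, the proteins that remove introns from messenger RNA precursors. They were taken by their names on the array: every gene whose name starts with Srsf, Sfrs, Sf3a, Sf3b, U2af, Snrp or Prpf, together with Zrsr2, Luc7l2 and Ddx41, but without Snrpn, an imprinted relative of Snrpb. This gave 50 genes of the 34843 genes and transcripts named on the array, read by 87 of its 55680 probes, and 1 probe stood for each gene, the one with the highest mean log2 signal over both arrays. No measured difference entered the choice of probe, whereas the set of genes was chosen with earlier results of these data known.

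RNA came from bone marrow LSK cells, the fraction without lineage markers that displays Sca-1 and c-Kit and holds haematopoietic stem cells and early progenitors. The cells carried a transplanted myelodysplastic syndrome (MDS), a clonal disorder of blood formation, of the genotype Tet2KD/KD; Ezh2delta/delta on the strain C57BL/6. They were sorted from secondary recipients at 10 weeks after transplantation, which was 7 weeks after treatment with either decitabine (DAC), a nucleoside analogue that lowers DNA methylation, or phosphate-buffered saline (PBS). Each group had 1 Agilent 1-colour array, so there was no spread between animals and no test. Both groups share the MDS genotype, and no array of untransplanted or wild-type cells was analysed here. Strain, genotype and times are from the labels. The dose and schedule of DAC, the ages of the mice, how Ezh2 was deleted and how many mice each array stands for are not stated in those labels.

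An intron is recognised at its 5′ end by the U1 snRNP, a complex of a small nuclear RNA and proteins, and at its 3′ end by the U2AF proteins and the U2 snRNP, which carries SF3A and SF3B. A tri-snRNP of U4, U6 and U5 then joins, is rearranged, and forms the catalytic centre. SR proteins, which carry stretches of arginine and serine, bind exons and help these complexes choose their sites. In MDS, genes for splicing factors are among those most often mutated in patients, chiefly SF3B1, SRSF2, U2AF1 and ZRSR2. For that reason each of their mouse genes is followed below.

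On the DAC array 56.8% of the probes were well above background, against 48.5% on the PBS array, and no spot was saturated. A level below is the log2 processed intensity minus the array's 75th percentile over the 25404 probes that passed background on DAC and PBS alike, so a level of 0 is a bright probe on either array. A difference is the DAC level minus the PBS level, and a difference of 1 is 2-fold. The only error that could be measured was that between repeated spots: for probes printed 10 times, the SD of the log2 difference was 0.317 in the low, 0.147 in the middle and 0.0913 in the high class of signal, the classes being 3 equal parts of the measured genes by mean level. It covers neither the mice, the sort nor the labelling, and in sorted bulk RNA fewer cells of a type and less RNA per cell cannot be told apart.

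The gate's own markers were present at like levels, with Kit at 2.64 on DAC and 2.52 on PBS and Ly6a, which encodes Sca-1, at 0.67 and 0.60. Of the 10 stem and progenitor markers, 9 were measured, Slamf1 was not well above background on either array, and Hlf and Procr were among those at least 2-fold higher on DAC; the log2 of the summed signal of the list, on DAC and on PBS, was 5.06 and 5.04. Genes from lists for other cell types were measured too. Those lists hold genes that LSK cells can express themselves, as in the B cell list, so they do not by themselves show other cells. The sum over the B cell list was 2.43 and 1.76 with 4 of 5 genes measured, over the myeloid list 5.81 and 6.31 with 4 of 5, over the erythroid list 0.89 and 1.41 with 3 of 5, and over the megakaryocyte list 0.93 and −0.13 with 2 of 4. The T cell sum was −0.06 and −0.26 with 2 of 5 measured and the endothelial and stromal sum −0.62 and −2.28 with 2 of 4. The 2 measured genes of that last list went opposite ways, with differences of 2.95 and −1.42, so its sum follows 1 gene. The myeloid and T cell sums also followed few genes. The myeloid sum was close to Itgam alone, with levels of 5.64 and 6.19 and a difference of −0.55. S100a8 had −0.49, whereas Csf1r and Ly6g had 0.02 and 0.07. Emr1 passed background with DAC alone, higher there by 4.97-fold or more. Of the T cell genes Cd4 was brightest, at −0.36 and −0.83, a difference of 0.47, and Cd3e had 0.10. In contrast, Cd3d passed background with PBS alone, lower with DAC by 4.51-fold or more. Among the defining markers, Cd3g, Cd8a, Ms4a1, Ppbp, Cdh5 and Col1a1 were not well above background on either array. The part of these shifts in the values below was not tested.

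Nearly the whole splicing family was expressed in both groups. Of the 50 genes, 48 were well above background on both arrays, as were 18222 of the 34843 genes named on the array. Sfrs18, Prpf40b and Prpf39 were at least 2-fold lower on DAC and 1 gene was at least 2-fold higher; the other 44, or 91.7%, lay within 2-fold, as did 83.1% of all genes measured. Of the 18222 genes measured, 10.0% were higher by this threshold and 6.85% lower, shares that became 7.33% and 10.2% when the 75th percentile was taken over all probes. Under that scaling Sf3a1, Sf3b5 and Snrpd2 joined the members that were lower, which made 6, and the count of higher members stayed at 1.

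The members' median difference was −0.18, with 18 above 0 and 30 below, beside a median of 0.02 over all genes. That offset from all genes, −0.20, was not kept when the arrays were matched across the range of signal: it was 0.04 with quantile normalization and −0.03 with loess. The members that exceeded 2-fold all came from the middle class of signal, where 8 of 12 lay within 2-fold against 77.9% of all genes there. All 34 members in the high class lay within 2-fold, as did 94.2% of all genes in that class. Differences larger than 1.96 times the SD between spots were seen in 33 of 48 members, 68.8%, and in 60.4% of all genes.

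**Figure D1:**
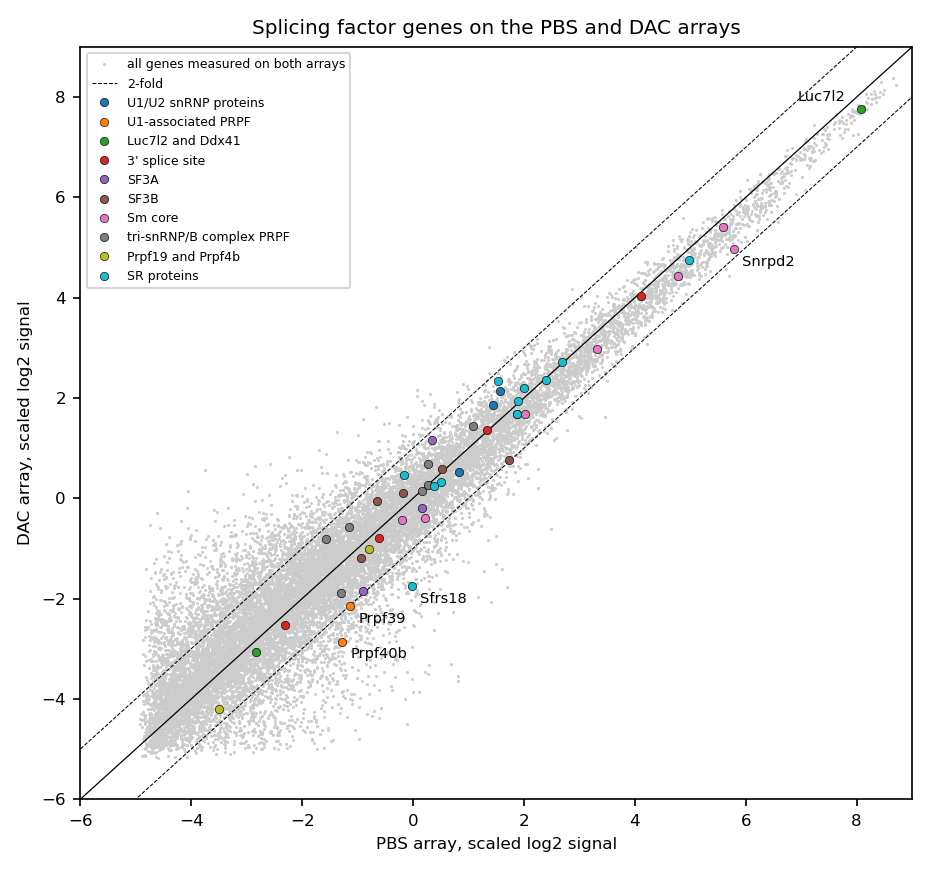
Scaled log2 level of each gene on the PBS array (x axis) and on the DAC array (y axis), 1 array each: grey points are the 18222 genes measured on both arrays, coloured points splicing factor genes by role, the solid line marks equal levels and the dashed lines 2-fold. Sfrs18, Prpf40b and Prpf39 lie below the lower dashed line, and the bright Sm genes such as Snrpd2 lie below the line of equality.

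The probes of a gene did not always give the same answer. Over the 87 probes of the family, 80 were measured on both arrays, of which 2 passed 2-fold upward and 3 downward, against 11.5% and 7.13% of all probes measured. A further 4 passed background with DAC alone, 3 of them with a difference of at least 2-fold (4.42% of all probes), and 1 on the PBS array only, which did not reach 2-fold (1.55% of all probes did). In the 25 members with several measured probes, all probes had the same sign in 15, against 52.8% of the 4649 such genes on the array. The probes spanned 1 log2 unit or more in 6 of the 25, against 36.0% of those genes.

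Among the U1-associated proteins, Prpf40b and Prpf39 were lower on DAC by their brighter probes. PRPF40B is a counterpart of the yeast protein Prp40, which helps the U1 snRNP connect the 5′ splice site with the branch point, and PRPF39 is a further protein of the U1 particle.

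Prpf40b was lower on DAC by its brighter probe and higher by its other one. The intensities were 112 on DAC and 254 on PBS for the brighter probe, a difference of −1.58 or 2.98-fold lower. The second probe, 1245 bases downstream on chromosome 15, gave 162 on DAC and only 32 on PBS, a difference of 1.96. This probe was in the low class of signal, so the size of its difference rests on few units of intensity. The call for this gene thus depends on the probe, and the mean over both probes was 0.19. The sequences of both are shown because they disagree, the first whole and the second by its first 30 bases, for comparison; positions are on mm9, and no exon annotation was used here.
Prpf40b, brighter probe, chr15:99145952-99146011, plus strand: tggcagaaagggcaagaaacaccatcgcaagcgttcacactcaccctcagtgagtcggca
Prpf40b, second probe, chr15:99147197-99147256, plus strand: ccagaccagagatgggcagtctataccacg

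Prpf39 showed the same kind of split. Its brighter probe gave an intensity of 183 on DAC and 282 on PBS, a difference of −1.02, which is 2.03-fold lower and close to the 2-fold line. Its second probe, 1472 bases upstream on chromosome 12, gave 149 and 85.2, a difference of 0.41. Past 2-fold lower in 7 of 11 alternative settings, Prpf39 kept its call least often of the 3 lower genes.

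The SR proteins were spread on both sides of 0, with 11 of 12 measured, a median difference of −0.03, which ran from −0.23 to 0.12 over the alternative scalings, and 1 gene past 2-fold. That gene was Sfrs18, grouped here by its name on the array, although it encodes an SR-related and not a classical SR protein. Its current name is Pnisr, and its product carries arginine-serine stretches and binds the nuclear protein pinin. Its brighter probe, at chr4:21798415-21798474 and starting gattctgaaaccgtaaactttgaagttctg, gave an intensity of 241 on DAC and 611 on PBS. The levels were −1.76 and −0.02, a difference of −1.74 or 3.34-fold lower, the lowest among the members. The second probe was also lower on DAC, with a difference of −0.59, so both probes of Sfrs18 had the same sign while only the brighter one passed 2-fold.

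Among the classical SR proteins, Srsf5 and Srsf9 had the largest differences in favour of DAC by the brightest probe. Srsf5 had an intensity of 4087 on DAC and 1778 on PBS, and levels of 2.33 and 1.52, a difference of 0.80 from its single probe. Srsf9 had 1129 and 549, a difference of 0.64. Both differences exceed 1.96 times the SD between spots and stay short of 2-fold. The Srsf5 probe lies at chr12:82050878-82050937 on the plus strand and reads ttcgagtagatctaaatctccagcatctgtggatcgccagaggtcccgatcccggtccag.

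Srsf2, which binds exonic enhancers and is mutated in human MDS, was higher on DAC by each of its 3 probes as scaled here. The brightest, which stood for the gene, gave 3723 on DAC and 2479 on PBS, a difference of 0.19. The second gave 1886 and 873, a difference of 0.72, and the third 217 and 88.4, a difference of 0.90. The sizes differed, and the value of the brightest probe was −0.012 when the 75th percentile was taken over all probes. The second probe lies at chr11:116713385-116713444 on the minus strand and reads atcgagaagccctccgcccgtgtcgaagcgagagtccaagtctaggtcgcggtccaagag; it is shown whole because it gave a larger difference than the brightest probe, which lies downstream of it.

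The remaining SR genes lay near 0 by their brightest probe and parted by their other probes. Srsf1, which promotes the use of 5′ splice sites, had 0.02 with other probes at −0.14 and −0.60. Srsf3, the smallest SR protein, had −0.22 with others at −0.25 and −0.78, all lower on DAC. In contrast, Srsf6 had −0.12 with another at 0.39, Srsf7 0.05 with another at 0.82, and Srsf10 −0.19 with others at 0.61 and −0.59.

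Srsf11 was −0.21 by its brightest probe and 0.73 by the second. The third probe passed background with DAC alone, at least 1.63-fold higher. Srsf4 had a single probe, at −0.03. Srsf12, which opposes other SR proteins, was well above background on the PBS array only, with an intensity of 27.0 against 19.1 on DAC, at least 1.58-fold lower on DAC; among all genes 1.63% had such a bound of 2-fold or more.

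**Figure D2:**
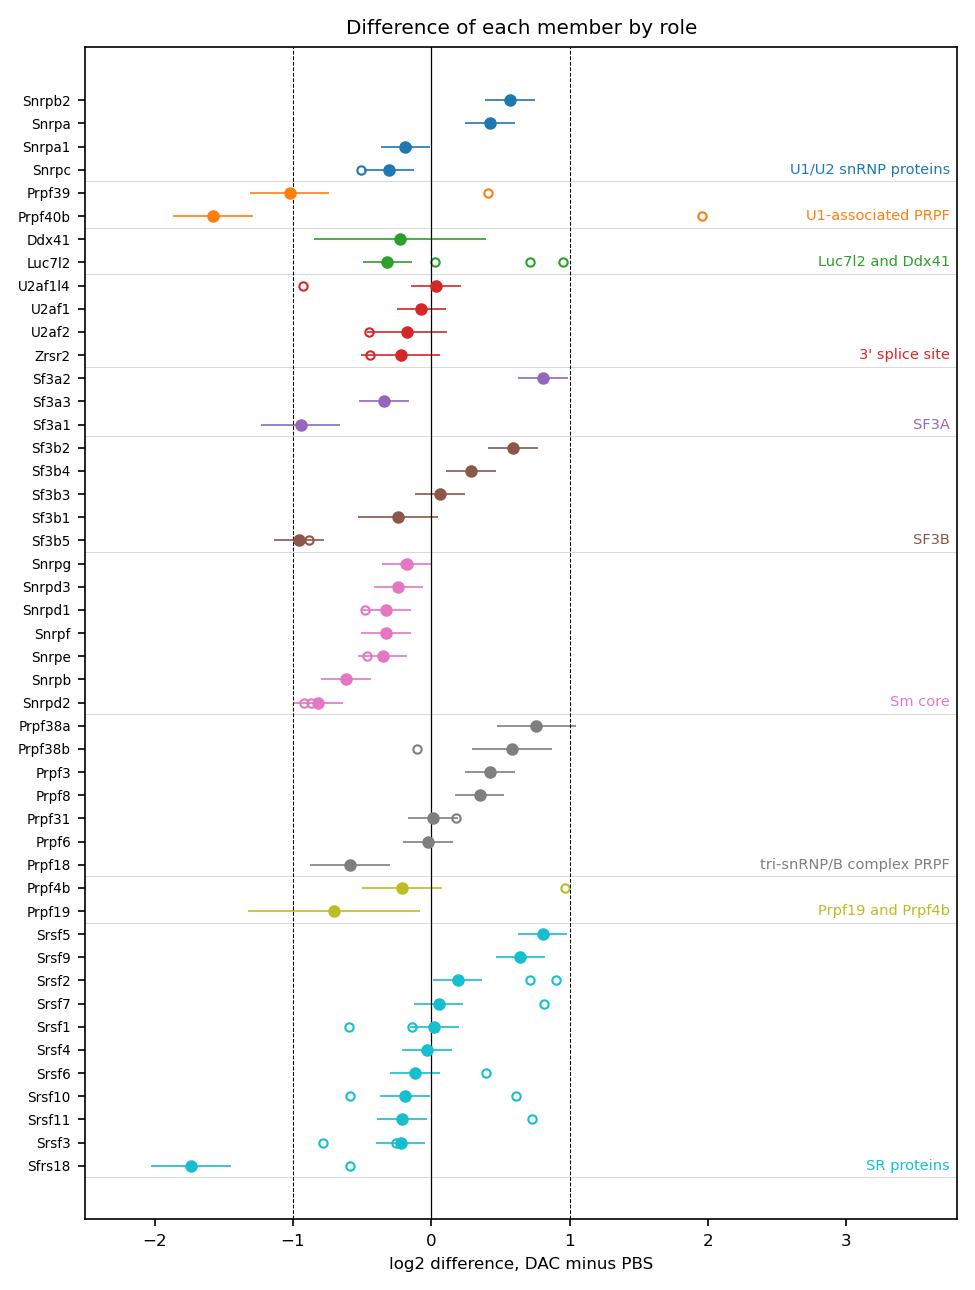
Log2 difference, DAC minus PBS (x axis), of splicing factor genes measured on both arrays, grouped by role: filled points are the brightest probe of each gene with a bar of 1.96 times the SD between repeated spots in its class of signal, open points the gene's other measured probes, and dashed lines 2-fold. The 7 Sm core genes lie below 0 by every probe, whereas Prpf40b, Prpf39, Luc7l2 and several SR genes have probes on both sides of 0.

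The factors that recognise the 3′ splice site differed little between the arrays by their brightest probes, with 3 of 4 below 0 as reported, 2 with quantile normalization or loess and 4 with the 75th percentile over all probes. U2AF1 and U2AF2 form the heterodimer that binds the end of the intron, U2AF1L4 is a relative of the small subunit, and ZRSR2 serves the minor class of introns. U2af1 had levels of 4.04 on DAC and 4.11 on PBS, a difference of −0.07, and its second probe gave −0.08. U2af2 had −0.18 and −0.45, and Zrsr2, with intensities of 141 and 125, had −0.22 and −0.44; both measured probes of each were lower on DAC on this scale.

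U2af1l4 had 0.03 by its brighter probe and −0.93 by its second, with intensities of 555 on DAC and 800 on PBS for the latter. The second probes of U2af1 and U2af1l4 are shown because each spans more of the genome than its own length, so it reads across a splice junction. For U2af1 this probe gave nearly the value of the brighter one, and for U2af1l4 it did not.
U2af1, second probe, chr17:31791956-31795601, minus strand: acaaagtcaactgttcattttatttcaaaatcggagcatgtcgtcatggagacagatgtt
U2af1l4, second probe, chr7:31349607-31349761, plus strand: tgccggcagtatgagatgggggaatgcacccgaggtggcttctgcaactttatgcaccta

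SF3A and SF3B, which hold the U2 snRNP on the branch point, contained genes on both sides of 0 and none past 2-fold. Sf3a2 had levels of 1.15 on DAC and 0.35 on PBS, a difference of 0.81. Sf3a1 had −1.85 and −0.91, a difference of −0.94, and Sf3a3 −0.34. The 3 subunits of SF3A, which act together in 1 particle, thus lay on both sides of 0.

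In SF3B the lowest was Sf3b5, the smallest subunit, with intensities of 1389 on DAC and 2050 on PBS and differences of −0.96 and −0.88 by 2 probes. Sf3b5 and Sf3a1 lay just inside the 2-fold line, and scaling by the median or by all probes took both past it. Sf3b1, the subunit that clasps the branch point and is often mutated in MDS, had intensities of 359 and 321, a difference of −0.24, which is within 1.96 times the SD between spots for its signal. Sf3b2 had 0.59, Sf3b4 0.29 and Sf3b3 0.06. The second probes of Sf3b3 and Sf3b4 passed background with DAC alone, at least 4.50-fold and 3.89-fold higher there, although the brighter probes of the same genes differed little.

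Of the U1 and U2 particle proteins, Snrpb2 and Snrpa were higher on DAC, with differences of 0.57 and 0.42. Snrpa encodes U1-A, and Snrpb2 its counterpart on the U2 particle; Snrpb2 had intensities of 3578 and 1833. Snrpa1, the partner of Snrpb2, had −0.19 by both of its probes, which share 53 bases and so are not independent readings. Snrpc, the U1 protein that steadies the pairing with the 5′ splice site, had −0.31 and −0.51 by 2 probes that the array's annotation places on chromosomes 17 and 5. The 2 proteins that sit together on the U2 particle, Snrpb2 and Snrpa1, lay on different sides of 0.

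The Sm core lay on 1 side of 0. Its 7 proteins form the ring around each small nuclear RNA, and all 7 genes were lower on DAC, none by 2-fold, with a median of −0.33. Snrpd2 was the lowest, with levels of 4.97 on DAC and 5.79 on PBS, a difference of −0.82. Snrpb followed with −0.62, Snrpe with −0.35, Snrpf with −0.33, Snrpd1 with −0.32, Snrpd3 with −0.24 and Snrpg with −0.17. The second probes, where there were any, were lower on DAC as well: −0.46 for Snrpe, −0.48 for Snrpd1 and −0.19 for Snrpg.

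Part of that direction is shared by other bright genes. Among the 6040 genes of the high class of signal outside the family, 60.6% were below 0 with a median of −0.13. Under quantile normalization and loess, where the median of those genes was 0.00, the Sm core had medians of −0.20 and −0.21 and 6 of 7 genes below 0, with Snrpg at 0.11 and 0.08. With 1 array per group, no test says whether the Sm genes stand apart from other bright genes.

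Snrpd2 was read by 3 probes, at −0.82, −0.87 and −0.92. The second and the third share 54 bases, although the array's annotation places them on different chromosomes, so their agreement is that of near-identical probes and signal from a copy of the gene cannot be separated from that of Snrpd2. Their first 30 bases show the overlap, with the shared bases in capitals.
Snrpd2, second probe, chr7:19738015-19738074, plus strand: ctgcgaAGGCCTGCAGAACCCTGCCCAGTG
Snrpd2, the third probe, chr10:127449210-127449269, plus strand: AGGCCTGCAGAACCCTGCCCAGTGGGCGAG

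The genes of the LSm proteins, relatives of the Sm proteins, were also mostly lower. Most of these proteins ring the U6 RNA or act in RNA decay, whereas Lsm10 and Lsm11 belong to the U7 particle. Of 10 genes on the list 8 were measured, 6 of them below 0, with a median of −0.37 and none past 2-fold. Lsm7 had −0.70, Lsm4 −0.60 and Lsm2 −0.56, whereas Lsm6 had 0.05 and Lsm8, listed on the array as Naa38, had 0.10. Lsm1, a decay factor, passed background with DAC alone, at least 2.68-fold higher there, beside 3.68% of all genes with such a bound of 2-fold or more.

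**Figure D3:**
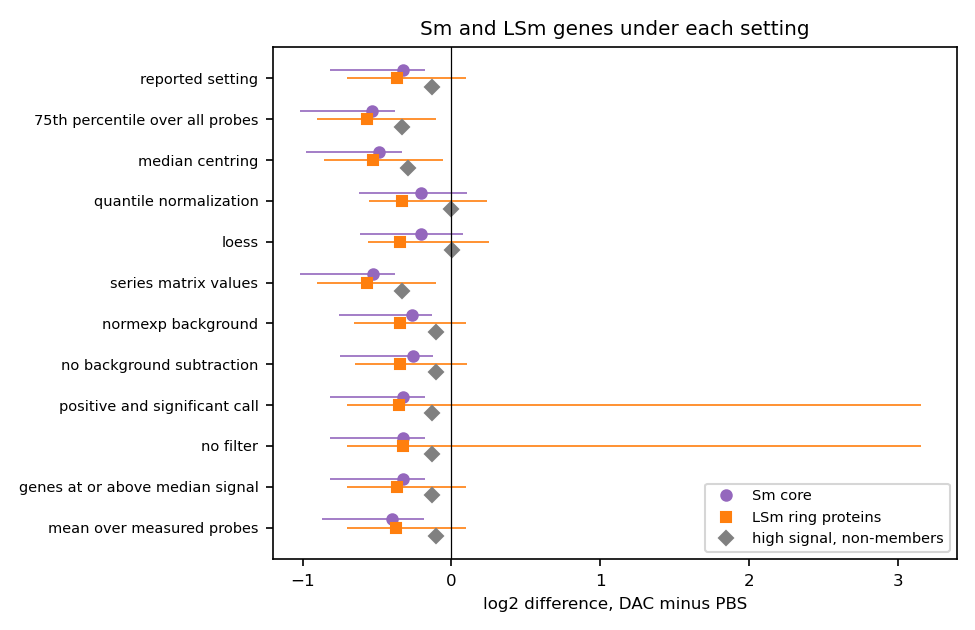
Median log2 difference, DAC minus PBS (x axis), under the reported setting and 11 alternatives (y axis) for the 7 Sm core genes, the LSm genes and the genes in the high class of signal outside the family; horizontal lines run from the lowest to the highest gene of the Sm and LSm groups. The Sm and LSm medians lie below 0 in each setting plotted, and the grey median of the other bright genes moves with them from 0.00 to −0.33.

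The PRPF proteins of the tri-snRNP and the B complex lay mostly above 0. Of 8 genes 7 were measured, 5 above 0, beside 51.4% of all genes measured, and none past 2-fold. Their median was 0.35, which ran from 0.15 to 0.44 over the alternative scalings. As reported 2 were below 0, and 3 were with median centring or the 75th percentile over all probes. Prpf8, the scaffold of the catalytic centre and a gene mutated in myeloid neoplasms, had levels of 1.44 on DAC and 1.09 on PBS, a difference of 0.35. Prpf3, a U4/U6 protein, had 0.42, and Prpf38a and Prpf38b, which join the B complex, had 0.76 and 0.58, with a second Prpf38b probe at −0.10. Prpf31 and Prpf6, which hold U4/U6 and U5 together, were at 0.01 and −0.02.

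Prpf18, counted with these genes although it acts in the second catalytic step, was lower on DAC with −0.59. Prpf4, a partner of Prpf3 on U4/U6, passed background with DAC alone, with an intensity of 61.2 against 11.9 on PBS. It was at least 2.29-fold higher on DAC, the 1 member with such a bound of 2-fold or more, beside 3.68% of all genes. Its signal lay near the limit of detection, so its size rests on few units of intensity.

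Prpf19, the ubiquitin ligase at the core of the complex named after it, was the only member printed 10 times on each array and so gave a view of the spots themselves. On DAC the 10 spots ran from 38.1 to 55.3 with a median of 44.7, and on PBS from 46.3 to 64.5 with a median of 55.5, before scaling between arrays. These unscaled ranges overlapped, with SDs of 0.165 and 0.166 on the log2 scale. Scaling subtracts 9.67 on DAC and 9.27 on PBS from the log2 intensity, after which the ranges no longer overlapped. After scaling the difference was −0.70, larger than 1.96 times the SD between spots at low signal. Prpf4b, a kinase that phosphorylates tri-snRNP proteins, had −0.21 by its brighter probe and 0.97 by its second.

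Luc7l2 and Ddx41 complete the set of genes mutated in human myeloid disease. LUC7L2 is a U1-associated protein that affects the choice of 5′ splice sites, and its gene lies in a region of human chromosome 7 that is lost in many myeloid neoplasms. DDX41 is an RNA helicase whose germline and acquired mutations predispose to MDS. Ddx41 was dim, with intensities of 97.2 on DAC and 86.3 on PBS, and its difference of −0.22 was within the spread between spots.

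Luc7l2 had 4 probes, and its brightest differed from the others in sequence. That probe had intensities of 175562 on DAC and 166205 on PBS and a difference of −0.32. It begins with a run of 32 bases of alternating G and T, shown in capitals in the first 30 bases beside those of the second probe.
Luc7l2, brightest probe, chr6:38559052-38559111, plus strand: GTGTGTGTGTGTGTGTGTGTGTGTGTGTGT
Luc7l2, second probe, chr6:38552314-38552373, plus strand: aaccatctgtaatggaatctgatcactctt

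A search of every probe on the array, on the strand as printed, for an alternating run of G and T of at least 20 bases found 52 probes, 0.0934% of all, and the Luc7l2 probe was the only member among them. All 52 were well above background on both arrays, as were 45.6% of all probes, and their median intensity was 172142 on DAC and 162825 on PBS against 38.8 and 20.8 over all probes. Their differences ran from −0.47 to 0.11 with a median of −0.28, and 50 of 52 were below 0. The value of −0.32 that stands for Luc7l2 is thus inside the range of probes that share its repeat and belong to other genes.

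The other Luc7l2 probes carried no such run and were not lower on DAC. The second gave 29445 and 21972, a difference of 0.03, the third 1961 and 909, a difference of 0.71, and the fourth 300.1 and 118.1, a difference of 0.95. None passed 2-fold. The sign for Luc7l2 therefore turned with the probe.

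**Figure D4:**
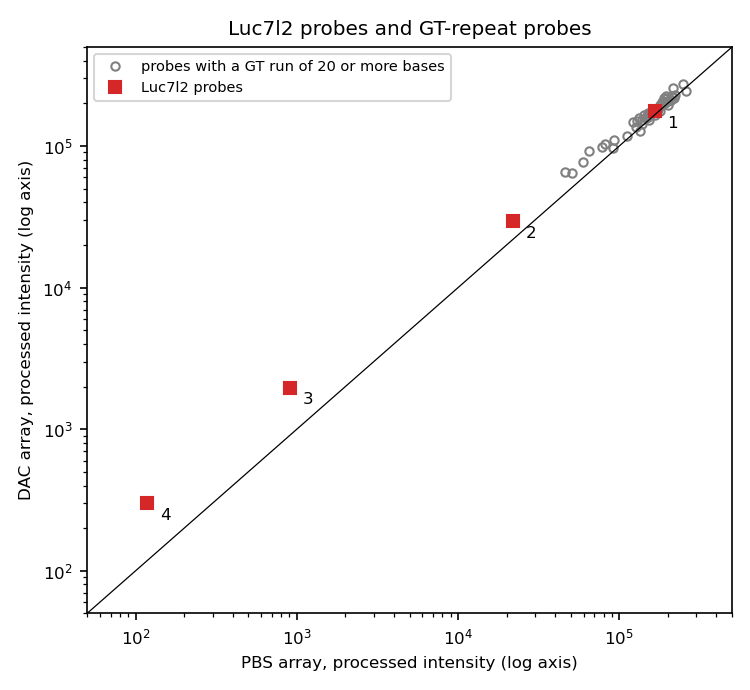
Processed intensity on the PBS array (x axis, log scale) and on the DAC array (y axis, log scale) of the 4 Luc7l2 probes (red squares, numbered from the brightest) and of the 52 probes with an alternating G and T run of at least 20 bases (grey circles), with a line of equal intensity. Luc7l2 probe 1 lies inside the cloud of repeat probes, between 64452 and 272699 on DAC, and probes 3 and 4 lie above the line.

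Taking the 10 members known as recurrent targets of mutation in myeloid malignancy together (Sf3b1, Srsf2, U2af1, Zrsr2, Luc7l2, Ddx41, Prpf8, Prpf40b, Sf3a1 and U2af2), all were measured on both arrays. Of these, 8 were below 0, beside 48.6% of all genes and 60.5% of those in the high class of signal, with a median of −0.22. Only 1, Prpf40b, was at least 2-fold lower, as were 6.85% of all genes. Of the 8, U2af1, U2af2, Zrsr2, Sf3b1 and Ddx41 lay within 1.96 times the SD between spots. Prpf8 and Srsf2 were the 2 above 0. Prpf40b and Luc7l2 are the ones whose sign turned with the probe, and the count below 0 was 6 of 10 with the mean over probes or with loess and 9 of 10 with the 75th percentile over all probes. Expression says nothing of whether the genes carried mutations in these cells.

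The position of a probe along its gene did not sort the members' signs. In 23 members with 2 or more measured probes that could be placed along 1 gene, the probe farthest upstream gave the higher difference in 13, or 56.5%, with a median gap of 0.02. Over 4519 genes of the array the share was 48.0% and the median gap −0.04.

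The promoters of the family were rich in CG dinucleotides, the sites at which DNA methylation is placed. In the 300 bases from 250 before to 50 after the gene start, taken from RefSeq on GRCm38.p6, which is not the build of the probe positions, 42 of 50 members could be matched. Their median was 24 CG dinucleotides, counted as the letters CG, beside 13 over 17492 protein-coding genes, and 39 of the 42 held 10 or more, against 58.0% of all genes. Luc7l2 had 2, the lowest. The data hold no methylation values, and the count is a description of sequence only.

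Other splicing genes were taken from lists of 153 names in 8 groups. Of these 142 were measured, with 12 at least 2-fold higher on DAC (8.45%, against 10.0% of all genes) and 4 at least 2-fold lower (2.82%, against 6.85%), and a median of 0.10 beside 0.02. Quantile normalization gave 7 higher and 8 lower, so the balance between them depends on the scaling. Among the snRNP and tri-snRNP proteins outside the family, 16 of 18 were measured and 1 was higher, the minor spliceosome protein gene Zmat5 with 1.10. There Txnl4b passed background with DAC alone, at least 6.07-fold higher, and so did Ddx23, a helicase of the U5 particle, at least 3.68-fold higher. Of all genes, 3.68% had such a bound of 2-fold or more, a share that applies to the like genes below too. More probes passed background on the DAC array, 56.8% against 48.5%.

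The Prp19 complex and catalytic-step proteins were the group with the widest range, with 4 of 19 measured genes higher and 3 lower, beside 10.0% and 6.85% of all genes. Cwc27, a cyclophilin of the activated spliceosome, had intensities of 241 on DAC and 27.8 on PBS, a difference of 2.72. Cwc22, which recruits the exon junction helicase, had 48.7 and 205, a difference of −2.47. Also higher were Cwc25 with 1.95, Aqr with 1.59 and Ppie with 1.23, and also lower were Cdc40 with −1.74 and Bud31 with −1.14. Most of these probes were dim on 1 of the arrays, and Slu7, a second-step factor, passed background with DAC alone, at least 2.87-fold higher.

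Spliceosomal helicases drive the rearrangements of the spliceosome. Among the 12 genes of that list, Dhx38, with intensities of 91.7 on DAC and 28.7 on PBS, had 1.28, and Dhx16 had 1.18. Dqx1, listed here as a relative without an established place in the spliceosome, had −1.49, with intensities of 31.8 and 67.8. It is among the lower genes counted above for the lists together. Srrm2, a large SR-related protein of nuclear speckles, was the 1 of 20 measured SR-related and kinase genes past 2-fold, with levels of 1.41 on DAC and 0.25 on PBS, a difference of 1.16; in that list Srek1 was read by another of the 52 probes with a G and T run. Sap18 passed background with DAC alone, at least 4.26-fold higher. Of 28 hnRNP genes, whose products often oppose SR proteins, Hnrnph2 had 1.58 and Ptbp2 1.25, with Hnrnph3 above background with DAC alone, at least 3.19-fold higher. Tia1, which aids U1 binding, had 1.13 among 23 genes for splice-site choice, where Zrsr1, the relative of Zrsr2, passed background with DAC alone, at least 4.73-fold higher. Gemin8, a subunit of the SMN complex that loads the Sm ring, had 1.34 among 16 assembly genes, while the Sm genes themselves were all within 2-fold.

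**Figure D5:**
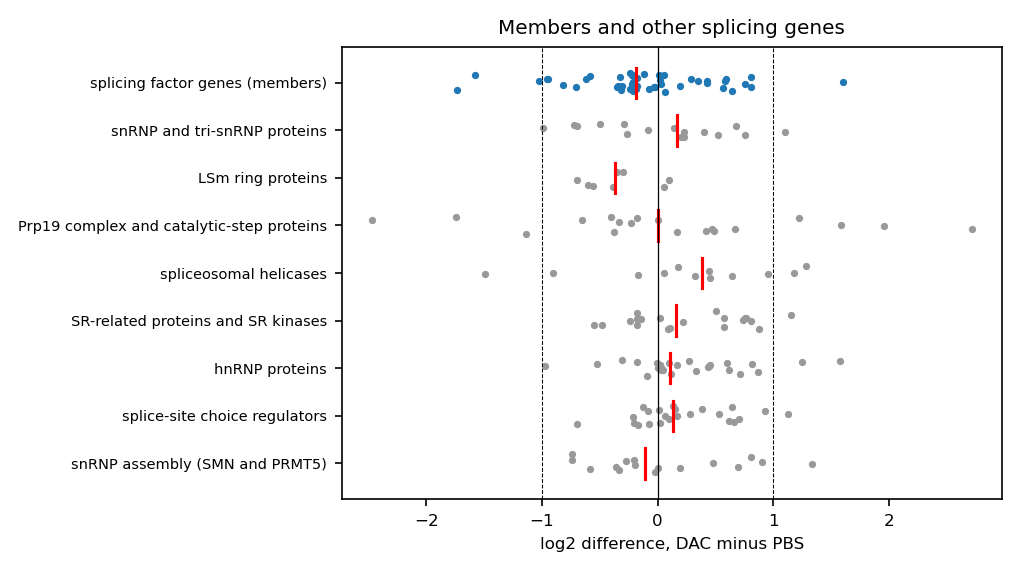
Log2 difference, DAC minus PBS (x axis), of each measured gene in the splicing factor family (blue) and in 8 lists of other splicing genes (grey); points are spread vertically for legibility, red bars are medians and dashed lines mark 2-fold. The LSm list has the lowest median, −0.37, and the Prp19 and catalytic-step list runs from −2.47 to 2.72.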

How the data were processed

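Per the file headers, the arrays were read with Agilent Feature Extraction 10.7.3.1 (protocol GE1_107_Sep09; probe positions on mm9). The authors' deposited processed intensity is background-subtracted and not normalized between arrays; mean and background intensities were used for alternatives. The deposited series matrix holds log2 values of unstated baseline, with column medians of 0; between arrays it followed the log2 processed intensity with a slope of 1.00, so it served for differences only.

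Non-uniform spots were left out (1 of 55681 probes lost), repeated spots were averaged on the log2 scale, and each array was scaled as described in the report. A probe above background on 1 array only received a bound, against the higher of its own signal and the lowest signal well above background on the other array. With 1 array per group no test was possible; the number of arrays limits the precision, and genes were counted at 2-fold. The members and lists were chosen with earlier results of these data known. Named were members mutated in myeloid disease, those past 2-fold or with such a bound, the brightest of each role, those whose probes part in sign with 1 past 2-fold, and other splicing genes past 2-fold; further members were named after their values were seen. Some genes that this rule or the marker lists take are not reported here. Of 87 member probes, 76 had their accession in the RefSeq table, and 1 symbol differed. Counting was tested on simulated data. R 4.3.3, limma 3.58.1, Python 3.11.15 and pandas 2.3.3 were used. Alternatives changed scaling, background, filter or probe choice.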

Additional observations from a re-analysis of the deposited data

How the results depend on the processing

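The count of lower members was 3 as reported. Scaling by the 75th percentile over all probes gave 6, with a members' median of −0.38, a Sm core median of −0.53 and 7 lower other splicing genes; the series matrix gave 6, −0.38, −0.53 and 7, and median centring 5, −0.34, −0.49 and 7. Quantile normalization gave 5, −0.048 and −0.20, with 7 higher and 8 lower other splicing genes, and loess gave medians of −0.038 and −0.21. These scalings moved the median of all genes from 0.02 to −0.18, −0.18, −0.14, −0.09 and −0.01. With normexp or no background subtraction, 4 other splicing genes were higher, not 12. The positive and significant call, or no filter, gave 2 higher members, Prpf4 among them, and no filter gave 20 higher other splicing genes. Keeping only genes at or above the median signal left 1 lower member, with 3 higher and 1 lower other splicing genes. The mean over probes left 1 lower member, a members' median of −0.064 and 2 lower other splicing genes, and turned Prpf40b to 0.19. The next brightest probe left 0 lower of 25 members and 1 lower other splicing gene, gave a Sm core median of −0.47 over 4 genes, and turned Prpf40b to 1.96 and Prpf39 to 0.41.

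Of 217 comparisons of 19 named members over 12 alternatives, 121 moved by less than the spread between spots and 93 by more. The other 3 were counted as reversed, for Prpf40b and Prpf39. Further changes of sign are among the 93, for Luc7l2, Prpf4b, U2af1, Snrpg, Srsf3 and Srsf2. The alternatives for the Sm core and the other splicing genes were added after seeing the data. No paired analysis was possible because each group has 1 array. Dim probes limit Srsf12, Prpf4, Ddx41, Prpf19 and the second value of Prpf40b, and 1 array per group leaves the spread between mice unknown.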
